A study of Mus musculus with 22 samples.

Results

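Hox-/- mouse embryonic stem (mES) cells and wild-type mES cells were taken through the same adherent endoderm protocol and collected at 120 h, and their polyadenylated RNA was compared. The comparison covers all genes outside the 39 Hox genes and chromosome Y in 6 of the 22 libraries of the series, 3 for each genotype. Of 55055 rows of the count table, 53448 lie outside those genes, and 14931 of them passed the filter on low counts and were tested. The fit held 14975 genes, because 38 Hox genes and 6 genes of chromosome Y were kept in it. The wild-type libraries carry the genotype label wt. The mutant libraries carry the genotype label Hox-/- and the code BADC in their titles, which the labels do not explain. In both genotypes about 50000 cells were plated per well in a medium with 0.2% serum and the B27 supplement. After 24 h they received 100 ng/ml Activin A with 3 µM CHIR99021, and again at 72 h. The labels describe the collected material as mixed cells, and the sources used here give neither the number of mutant clones nor whether replicates are separate cultures. Genotype and cell line therefore cannot be told apart, and p-values measure only the spread between these libraries, which may be technical.

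Hox genes encode homeodomain transcription factors that lie in clusters and give cells their position along the head-to-tail axis. Activin A acts through the receptors that Nodal uses and drives pluripotent cells towards mesendoderm, the common precursor of mesoderm and endoderm. CHIR99021 blocks the kinase GSK-3 and so activates canonical Wnt signalling, which favours primitive streak and posterior fates. Definitive endoderm, the source of the gut lining, is marked by Sox17, Foxa2 and Cxcr4, whereas the extraembryonic visceral endoderm shares many of these factors and secretes apolipoproteins.

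The wild-type libraries held 12.3 to 15.2 M counts and the Hox-/- libraries 15.9 to 17.6 M. Hox genes summed to 828, 877 and 870 CPM (counts scaled to the library total) in wild type and to 26.4, 28.6 and 22.5 CPM in Hox-/-. The mutant total was 3.01% of the wild-type total, and 37 of the 38 tested Hox genes were lower. An exact two-sided permutation test of the summed Hox level gave p = 0.1, the smallest that 3 libraries against 3 allow. The first principal component of log CPM separated the genotypes and held 86.2% of the variance. Mitochondrial genes took 0.909 to 1.42% of the counts of a library.

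Cells of the wild-type cultures carried endoderm markers beside remaining pluripotent ones. In FPKM (fragments per kilobase of transcript, scaled to the library size), Sox17 averaged 0.180 in wild-type mES cells, 16.5 in wild-type endoderm cultures and 3.51 in Hox-/- endoderm cultures. Foxa2, a forkhead factor of endoderm and the node, averaged 0.0829, 8.93 and 1.96 FPKM in the same order. The chemokine receptor gene Cxcr4 averaged 1.19, 31.5 and 18.7 FPKM. In wild type, 24 of 27 tested endoderm factors were higher in endoderm cultures than in mES cells, where 79.9% of all 16206 tested genes differed and 41.5% were higher. Pou5f1, which encodes the pluripotency factor Oct4, averaged 1009.8, 182 and 69.2 FPKM, so its transcript was lower in the cultures than in mES cells but not lost. The other 3 tested endoderm factors were lower in the cultures, among them Hhex, an anterior endoderm factor, with 5.21 FPKM in mES cells and 1.85 FPKM in wild-type cultures. Afp and Ttr, abundant products of mature visceral endoderm, stayed at 0.0978 and 0.788 FPKM in wild-type cultures. The neural factors Sox1 and Pax6, the trophoblast factors Elf5 and Gcm1 and the embryonic globin Hba-x were near 0 in both genotypes. In these bulk cultures, fewer cells of a type and less RNA per cell cannot be told apart.

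**Figure D1:**
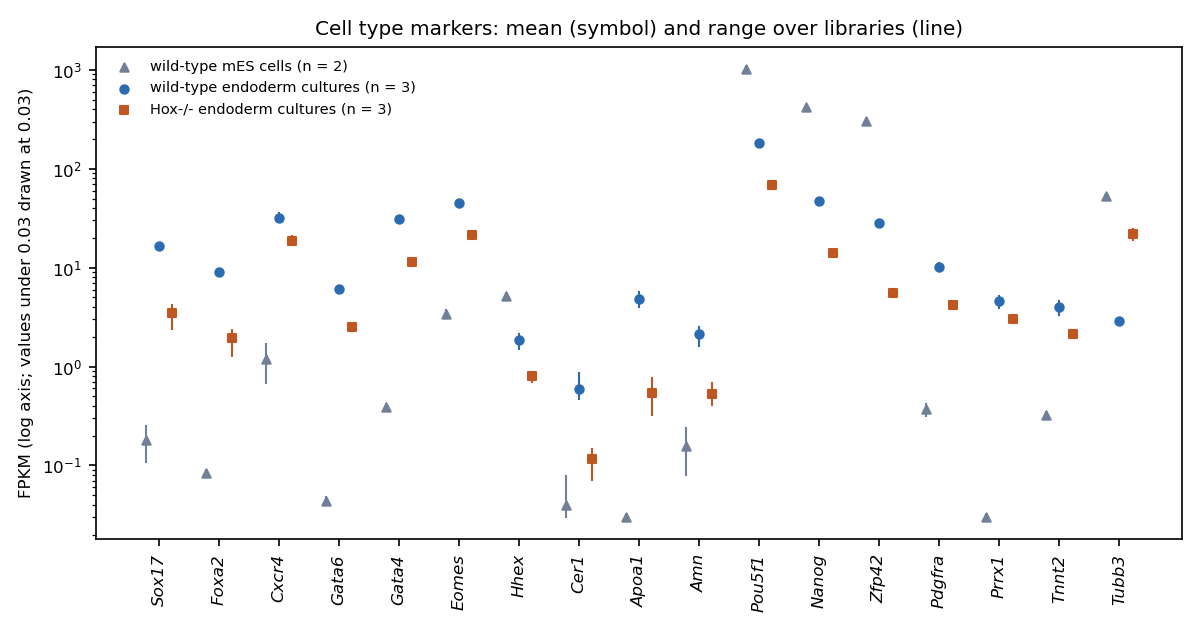
FPKM of 17 cell type markers (log axis) in wild-type mES cells, wild-type endoderm cultures and Hox-/- endoderm cultures, with symbols for means and lines for the range over libraries. Sox17, Foxa2, Gata4 and Eomes were higher in both kinds of endoderm culture than in mES cells, and lower in Hox-/- than in wild-type cultures.

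The genotypes differed at 6879 genes, 46.1% of those tested (edgeR quasi-likelihood test, adjusted p under 0.05). In Hox-/- cultures 3461 genes were higher (23.2%) and 3418 lower (22.9%). The median log2 fold change of all tested genes was 0.003. Most differences were small: 78.18% of the called genes differed by less than 2-fold. At 2-fold or more, 614 genes were higher (4.11%) and 887 lower (5.94%). At 4-fold or more, 77 were higher and 211 lower. All 3 Hox-/- libraries lay above all 3 wild-type libraries for 3977 genes (26.6%), and below them for 4177 (28.0%). Among 13185 tested protein-coding genes, 3016 were higher and 3253 lower, and at 2-fold or more 328 and 802. Of 662 long noncoding RNA genes, 89 were higher and 80 lower.

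Processed pseudogenes, which are copies of messenger RNAs inserted back into the genome, made up 235 of the 614 genes that were higher by 2-fold or more. Of 710 tested, 322 were higher (45.4%, against 23.2% of all tested genes) and 46 lower, with a median log2 fold change of 0.72. Summed over the 710, they held 5764, 5685 and 6035 CPM in wild-type cultures and 6614, 5664 and 5833 CPM in Hox-/-. The sums of the genotypes thus overlapped. Their median level was 1.22, 1.19 and 1.24 CPM in wild-type cultures and 2.56, 1.75 and 1.57 CPM in Hox-/-, so replicate 1 of Hox-/- stood highest. Without that library the median was 0.45 and 201 were higher. In mES cells 10 of 905 were higher (1.10%, against 5.12% of all tested genes) and 7 lower (median 0.18). In Activin A gastruloids at 96 h, 193 of 1550 were higher (12.5%, against 12.4% of all genes) and 9 lower (median 0.38). At 120 h, 37 were higher (2.39%, against 22.2% of all genes) and 20 lower (median 0). These joint fits let more pseudogenes through the filter on low counts. With no such filter 570 of 4237 were higher in endoderm cultures (13.5%), beside 3561 of 28205 genes of all kinds. The shares in different materials are therefore not directly comparable. Because reads from near-identical copies can be split between loci, these levels are uncertain, and what moves them was not tested. The same 6 libraries gave 5, 9 and 5 counts of mt-Co2 in wild type and 49, 28 and 21 in Hox-/-, while mt-Co1, at far higher counts, did not pass the test with a log2 fold change of -0.10 ± 0.11 (adjusted p = 0.493).

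**Figure D2:**
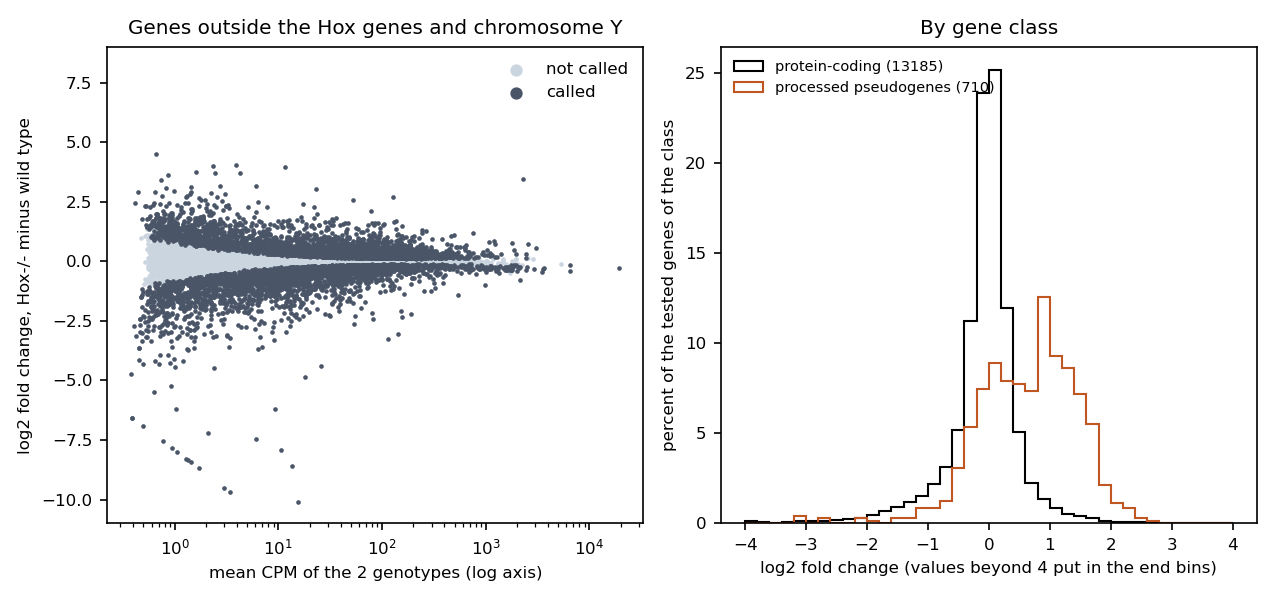
Left, log2 fold change of every tested gene outside the Hox genes and chromosome Y against its mean CPM (log axis), with called genes dark. Right, the share of protein-coding genes and of processed pseudogenes in each fold change bin; the pseudogenes, with a median of 0.72, lie to the right of the protein-coding genes.

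The genes with the largest increases included the noncoding RNA gene H19, the growth factor binding protein gene Igfbp5 and the caudal homeobox gene Cdx4. H19, an imprinted RNA expressed from the maternal chromosome, held 342, 387 and 423 CPM in wild-type cultures and 4047, 4228 and 4181 CPM in Hox-/- (log2 fold change 3.44 ± 0.075, adjusted p = 2.61e-13). Igfbp5, which binds insulin-like growth factors in the extracellular space, held 28.1, 35.3 and 38.4 CPM and 226, 214 and 218 CPM (log2 fold change 2.69 ± 0.082). Every Hox-/- library lay above every wild-type library for both genes. Lack of overlap was, however, a condition for choosing lead genes by p or by size of change. Tubb3, a tubulin gene typical of neurons, held 4.38, 5.14 and 5.54 CPM in wild-type cultures and 40.6, 35.8 and 45.8 CPM in Hox-/- (log2 fold change 3.02 ± 0.12). Its level in wild-type mES cells was 53.1 FPKM, against 2.87 and 21.8 FPKM in wild-type and Hox-/- endoderm cultures. The mutant cultures thus stood between mES cells and wild-type cultures for this gene. Tuba1a, another tubulin gene, rose from 456 ± 17.9 to 1039 ± 25.4 CPM (mean ± SD, n = 3, as for all such pairs below). Dpysl4, a relative of collapsin response mediators, rose from 7.45 ± 1.000 to 36.7 ± 1.27 CPM. Robo2, a receptor for the guidance cue Slit, rose from 53.04 ± 0.504 to 154 ± 10.2 CPM, and the prokineticin receptor gene Prokr2 from 1.42 ± 0.349 to 21.7 ± 1.97 CPM. The secreted or matrix protein genes Adamtsl2 and Scube3 rose from 15.1 ± 2.41 to 90.2 ± 3.34 CPM and from 37.5 ± 1.48 to 108 ± 3.07 CPM. Lsp1, which encodes an actin-binding protein, rose from 52.5 ± 1.30 to 137 ± 5.72 CPM.

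Trh, Grb10, Car4 and Apoe led the genes that were lower. Trh, the thyrotropin-releasing hormone gene and a marker of early definitive endoderm, held 264, 258 and 246 CPM in wild-type cultures and 30.6, 29.6 and 32.3 CPM in Hox-/- (log2 fold change -3.04 ± 0.056). Grb10, an imprinted adaptor that restrains insulin signalling, held 199, 202 and 214 CPM and 20.4, 22.3 and 21.7 CPM (log2 fold change -3.25 ± 0.060). No mutant library reached a wild-type one for either gene, which was again a condition of the choice of lead genes. Car4, a membrane-bound carbonic anhydrase, held 149, 139.7 and 125 CPM in wild-type cultures and 24.3, 26.4 and 25.1 CPM in Hox-/- (log2 fold change -2.44 ± 0.070). Apoe, the lipid carrier apolipoprotein E, held 319.8, 304 and 320.3 CPM and 70.0, 61.6 and 73.8 CPM (log2 fold change -2.19 ± 0.064). The imprinted zinc finger gene Zim1 held 35.9, 35.7 and 32.2 CPM in wild-type cultures and 0.852, 1.05 and 1.64 CPM in Hox-/- (log2 fold change -4.87 ± 0.15), the widest gap among these genes. Dppa5a, an RNA-binding protein gene of pluripotent cells, fell from 258 ± 28.2 to 50.2 ± 0.257 CPM, and Greb1l from 131 ± 4.48 to 29.2 ± 2.67 CPM. Bst2, which encodes the antiviral protein tetherin, fell from 138 ± 8.01 to 67.9 ± 4.80 CPM.

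**Figure D3:**
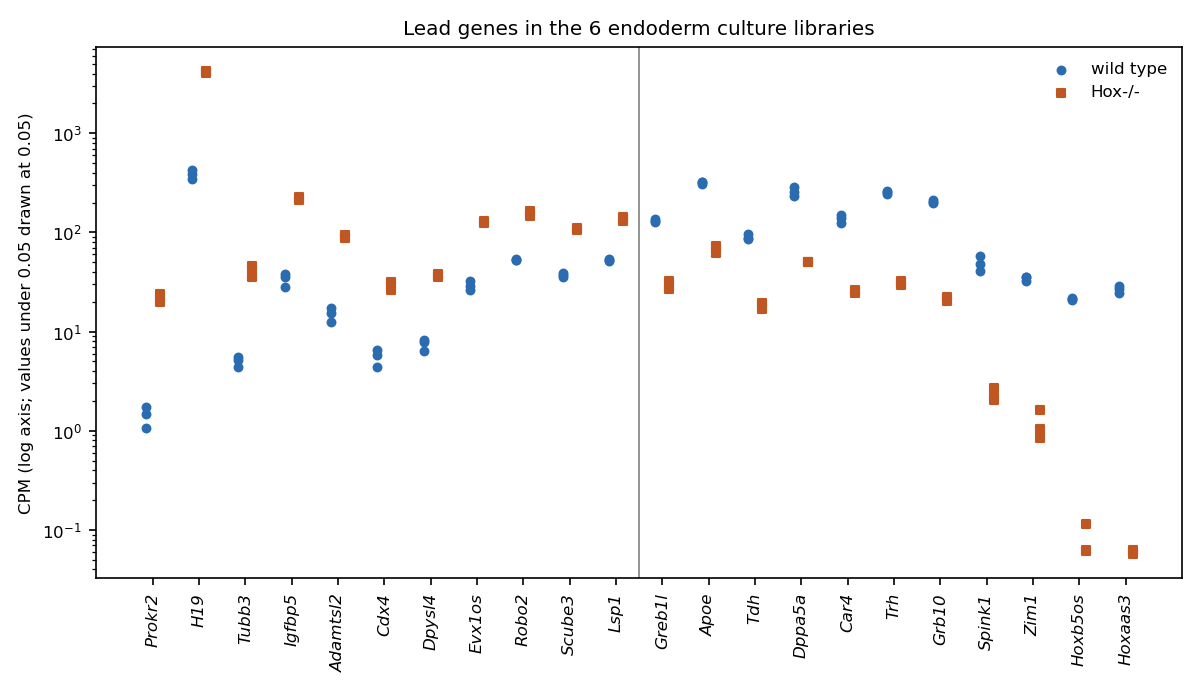
CPM (log axis) of the lead genes in each of the 3 wild-type (circles) and 3 Hox-/- (squares) endoderm culture libraries, ordered by log2 fold change. Only genes whose libraries do not overlap between genotypes were eligible to be drawn. They run from Prokr2 and H19 on the left, higher in Hox-/-, to Hoxb5os and Hoxaas3 on the right, lower in Hox-/-.

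Most definitive endoderm factors were lower in Hox-/- cultures. Of 27 tested members of a list of definitive endoderm genes, 23 fell, 1 rose and 3 did not pass the test, with a median log2 fold change of -1.20. Beside this and every later list count in endoderm cultures stand the shares of all tested genes, 23.2% higher and 22.9% lower. Sox17, the factor that commits cells to endoderm, held 25.5, 23.9 and 24.1 CPM in wild-type cultures and 3.64, 5.11 and 5.92 CPM in Hox-/- (log2 fold change -2.32 ± 0.13, adjusted p = 4.49e-09). Foxa2 held 19.96, 17.9 and 18.0 CPM and 2.78, 4.98 and 4.79 CPM (log2 fold change -2.15 ± 0.15). Gata4, a zinc finger factor of endoderm and heart, held 89.2, 90.9 and 91.4 CPM and 32.3, 34.7 and 32.00 CPM (log2 fold change -1.45 ± 0.056). In all 3 genes the genotypes were fully apart, as they were for 6621 of the 6879 called genes. That count stands beside every later statement that libraries did not overlap. Cxcr4 fell less, from 41.2 ± 3.31 to 25.5 ± 1.91 CPM (log2 fold change -0.69 ± 0.081), and so did the early T-box factor Eomes, from 162 ± 10.1 to 78.8 ± 4.08 CPM (-1.03 ± 0.059). Cpn1, a secreted carboxypeptidase subunit, fell from 12.9 ± 0.915 to 1.05 ± 0.144 CPM, and the hepatic and gut nuclear receptor gene Hnf4a from 15.4 ± 0.404 to 2.27 ± 0.419 CPM. Cer1, an antagonist of Nodal secreted by anterior endoderm, fell from 1.11 ± 0.310 to 0.221 ± 0.0341 CPM. Otx2 and Lhx1, head organizer factors, fell by 1.51 and 1.39 on the log2 scale. Foxa1 and Foxa3, paralogs of Foxa2, fell by 0.85 and 1.90. Mixl1, an early mesendoderm homeobox gene, had 94.3 ± 9.92 CPM in wild-type cultures and 84.0 ± 8.501 CPM in Hox-/- and did not pass the test (adjusted p = 0.126), nor did Prdm1 or Sox7. The member that rose was Dkk1, a Wnt antagonist (from 82.6 ± 2.53 to 96.7 ± 6.54 CPM).

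Factors that pattern the gut tube moved in both directions. Of 24 tested, 9 rose and 8 fell, and the median of 0.12 changed sign over the settings tried. Pax9, a factor of the pharyngeal pouches, held 3.49, 5.14 and 5.25 CPM in wild-type cultures and 0.0568, 0.369 and 0.189 CPM in Hox-/- (log2 fold change -4.47 ± 0.37). Sox2, a foregut and pluripotency factor, fell from 57.9 ± 7.35 to 19.9 ± 1.10 CPM, and Ihh, a Hedgehog ligand of the gut lining, from 7.85 ± 1.29 to 2.08 ± 0.334 CPM. Cdx2, the factor of the hindgut and posterior embryo, rose from 98.8 ± 7.997 to 207 ± 10.7 CPM (log2 fold change 1.08 ± 0.063), and Cdx1 rose from 4.31 ± 0.160 to 8.42 ± 1.27 CPM. Cdx4, the third member of that family, held 5.76, 6.60 and 4.38 CPM in wild-type cultures and 30.1, 31.3 and 26.3 CPM in Hox-/- (log2 fold change 2.39 ± 0.12). All 3 Cdx genes were therefore higher, and no library of Cdx4 overlapped between genotypes, as for most called genes. Pdx1, Nkx2-1 and 8 other members did not pass the filter on low counts.

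Genes on a list of visceral endoderm and liver, which holds secreted proteins and others such as Amn and Tdh, were lower almost throughout. Of 19 tested, 18 fell and none rose (median -1.42), and 5 of the 34 members had 0 counts in every library. The lipid carriers Apob and Apoa1 fell from 93.2 ± 11.1 to 15.0 ± 3.08 CPM and from 4.51 ± 0.812 to 0.4998 ± 0.169 CPM. Spink1, a trypsin inhibitor, held 57.6, 47.9 and 40.9 CPM in wild-type cultures and 2.22, 2.03 and 2.71 CPM in Hox-/- (log2 fold change -4.38 ± 0.15). Amn, which anchors the endocytic receptor of visceral endoderm, fell from 3.68 ± 0.919 to 0.951 ± 0.171 CPM. Tdh, the threonine dehydrogenase on which mouse mES cells depend, fell from 90.5 ± 6.01 to 18.2 ± 1.28 CPM, a member that also belongs to the pluripotent state. The summed level of the list was 603 to 638 in wild type and 182 to 217 in Hox-/-, in FPKM. Among genes of parietal endoderm and trophoblast, 13 of 21 fell and 4 rose (median -0.50). Tead4 and Tfap2c, trophoblast factors, fell from 13.7 ± 0.451 to 6.20 ± 0.575 CPM and from 43.3 ± 2.38 to 22.1 ± 1.58 CPM, and Plat, a plasminogen activator, rose from 12.00 ± 0.419 to 24.9 ± 2.40 CPM.

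Pluripotency genes were lower too. Of 30 tested, 27 fell, 3 rose and 23 fell by 2-fold or more (median -1.65), and the summed level was 1197 to 1362 in wild type and 463 to 475 in Hox-/-, in FPKM. Nanog, a homeobox factor of naive pluripotency, held 96.8, 111 and 107 CPM in wild-type cultures and 31.5, 31.98 and 32.1 CPM in Hox-/- (log2 fold change -1.71 ± 0.063). Pou5f1 held 222, 257 and 232 CPM and 102, 82.5 and 91.7 CPM (log2 fold change -1.35 ± 0.074), and Zfp42, also called Rex1, fell from 51.9 ± 4.46 to 10.5 ± 0.525 CPM (-2.29 ± 0.084). Libraries of the 2 genotypes did not overlap for any of these 3 genes, as for most called genes. Tcl1, Fgf4 and Nr5a2 showed wider gaps at low levels, falling from 6.22 ± 0.687 to 0.666 ± 0.137 CPM, from 5.71 ± 1.06 to 0.664 ± 0.102 CPM and from 7.13 ± 1.03 to 1.10 ± 0.145 CPM. Fgf5, which marks the later, primed state, fell as well, from 21.9 ± 3.16 to 4.83 ± 0.496 CPM. Those that rose were Sall4 (from 279 ± 12.8 to 317 ± 3.57 CPM), Trp53inp1, a p53-induced gene (from 211 ± 10.97 to 267 ± 6.76 CPM), and Pou3f1 (from 1.15 ± 0.371 to 2.17 ± 0.703 CPM). The call on Pou3f1 was lost with DESeq2 and without 3 of the 6 libraries. Dnmt3l and Dnmt3b, DNA methylation genes active in early embryonic cells, fell from 32.2 ± 2.18 to 7.24 ± 0.620 CPM and from 199.9 ± 7.29 to 90.7 ± 1.78 CPM, while Dnmt3a rose from 192 ± 4.62 to 241 ± 1.77 CPM. Over the list of DNA methylation and demethylation genes 6 of 18 rose (33.3%) and 5 fell (27.8%). Their median of 0.011 changed sign over the settings. Germ cell genes fell at 16 of 23 and rose at 2 (median -0.67), led by Hormad1, a meiotic chromosome protein (from 1.36 ± 0.0368 to 0.0840 ± 0.145 CPM), and Dazl, an RNA-binding protein (from 2.52 ± 0.498 to 0.423 ± 0.0226 CPM). Their summed level went the other way, 485 to 541 in wild type and 604 to 634 in Hox-/-, in FPKM, and the member Ifitm3, with mean levels of 318 and 492 FPKM in the 2 genotypes, rose from 179 ± 16.1 to 284 ± 5.94 CPM.

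To place these changes beside the DNA next to the genes, the 250 bases before the RefSeq start of 3 members with a POU octamer core are shown, 2 lower and 1 higher in Hox-/-. The octamer core, TTTGCAT on either strand, is the kind of site that Oct4 and its relatives bind. The window of the Wnt target Axin2 holds the composite TGATTNAT at which PBX and HOX proteins bind jointly. All are GRCm38.p6, on the strand of the gene, with the match in capitals.
Nanog (chr6:122707239-122707488, plus strand): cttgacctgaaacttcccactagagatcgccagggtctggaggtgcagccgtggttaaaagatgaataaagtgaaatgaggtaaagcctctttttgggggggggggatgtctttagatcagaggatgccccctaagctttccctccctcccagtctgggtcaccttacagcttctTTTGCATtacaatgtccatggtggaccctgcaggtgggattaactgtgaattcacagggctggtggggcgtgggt
Zfp42 (chr8:43307010-43307259, minus strand): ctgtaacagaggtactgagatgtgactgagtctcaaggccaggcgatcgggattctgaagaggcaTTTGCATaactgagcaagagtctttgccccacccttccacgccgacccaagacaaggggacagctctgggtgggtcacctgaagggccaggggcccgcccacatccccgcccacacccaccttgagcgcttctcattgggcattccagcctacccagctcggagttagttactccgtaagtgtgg
Cdx4 (chrX:103321148-103321397, plus strand): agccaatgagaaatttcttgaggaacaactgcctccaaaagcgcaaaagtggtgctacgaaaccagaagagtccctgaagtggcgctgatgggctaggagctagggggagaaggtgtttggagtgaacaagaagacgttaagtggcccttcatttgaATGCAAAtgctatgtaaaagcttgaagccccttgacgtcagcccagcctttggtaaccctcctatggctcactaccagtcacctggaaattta
Axin2 (chr11:108920099-108920348, plus strand): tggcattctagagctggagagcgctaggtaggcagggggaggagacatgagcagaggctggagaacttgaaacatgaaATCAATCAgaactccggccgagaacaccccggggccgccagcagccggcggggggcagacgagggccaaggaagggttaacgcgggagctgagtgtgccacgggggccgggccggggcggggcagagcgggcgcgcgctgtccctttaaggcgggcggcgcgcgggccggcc
In Nanog and Zfp42 the core reads along the gene's own strand, and in Cdx4 it reads along the opposite strand, as does the composite in Axin2. The octamer core stood in 3.37% of the 10858 RefSeq windows of tested genes, from 250 bases before to 50 after the start. It stood in 5.35% of the 243 windows of genes higher by 2-fold or more and in 4.72% of the 636 windows of genes lower by 2-fold or more, and in 3 of 22 windows of the pluripotency list. Over all 20944 RefSeq windows, tested or not, its share was 4.35%. The PBX and HOX composite stood in 1.36% of tested, 2.47% of higher, 3.93% of lower and 3.09% of all windows. For the core of TCF and LEF sites, ATCAAAG, the shares in the same order were 2.45%, 4.12%, 2.67% and 3.39%. The GATA core AGATAA gave 5.86%, 7.82%, 8.02% and 10.37%. Its share in the genes that changed was thus above that of tested genes and below that of all windows. A match describes letters in a window and says nothing of binding.

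Epithelial genes were lower and many mesenchymal genes higher. Of 33 tested keratin, junction and epithelial regulator genes, 30 fell and none rose (median -0.78), with a summed level of 1028 to 1056 in wild type and 604 to 665 in Hox-/-, in FPKM. Cdh1, which encodes E-cadherin, held 276, 280.2 and 270.5 CPM in wild-type cultures and 177, 178 and 178 CPM in Hox-/- (log2 fold change -0.63 ± 0.044). The surface protein gene Epcam fell from 96.5 ± 6.33 to 62.5 ± 1.29 CPM. Changes were small but every library was separated for both, as for most called genes. Wider gaps were seen for Rab25, a trafficking GTPase of epithelia (from 3.64 ± 0.0797 to 0.840 ± 0.251 CPM), the regulator Ovol2 (from 4.78 ± 1.13 to 1.39 ± 0.302 CPM), the polarity gene Crb3 (from 19.8 ± 3.20 to 6.12 ± 0.353 CPM) and the tight junction gene Tjp3 (from 17.3 ± 1.30 to 6.55 ± 0.192 CPM). Among mesenchymal genes 16 of 25 rose and 7 fell (median 0.33). Zeb1, a repressor of E-cadherin, held 52.00, 49.3 and 54.1 CPM in wild-type cultures and 102, 109 and 104 CPM in Hox-/- (log2 fold change 1.03 ± 0.056). Cdh2, which encodes N-cadherin, rose from 181 ± 7.37 to 223 ± 0.920 CPM, and the growth factor receptor gene Pdgfrb from 33.0 ± 2.15 to 84.9 ± 5.40 CPM. Pdgfrb was higher in Hox-/- mES cells as well (log2 fold change 0.74), and it lies in a stretch of chromosome 18, between 60 and 62 Mb. In that stretch 14 of 22 tested genes were higher in the endoderm cultures, against 23.2% of all tested genes. Acta2, smooth muscle actin, rose from 309 ± 43.9 to 672 ± 39.9 CPM. The paralog Pdgfra, a mesoderm and primitive endoderm receptor, fell from 69.6 ± 5.93 to 29.6 ± 1.95 CPM, as did Snai2 (from 2.93 ± 0.387 to 1.21 ± 0.144 CPM) and Thy1 (from 1.75 ± 0.625 to 0.666 ± 0.0880 CPM). Vim did not pass the test (adjusted p = 0.0559). Collagens rose at 12 of 31 and fell at 10, and their median of 0.18 changed sign over the settings tried. The fibrillar Col1a1 rose from 138 ± 29.5 to 345 ± 6.88 CPM, whereas Col4a5 and Col4a6 of the basement membrane fell from 27.2 ± 2.496 to 11.9 ± 1.27 CPM and from 11.1 ± 0.774 to 4.02 ± 0.530 CPM. Of 37 laminin, matrix and integrin genes 19 rose and 10 fell (median 0.14). Thbs1, a matrix glycoprotein, rose from 62.6 ± 8.91 to 199 ± 13.0 CPM, and Lama1, the laminin of the early basement membrane, fell from 139 ± 5.65 to 82.2 ± 11.5 CPM.

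**Figure D4:**
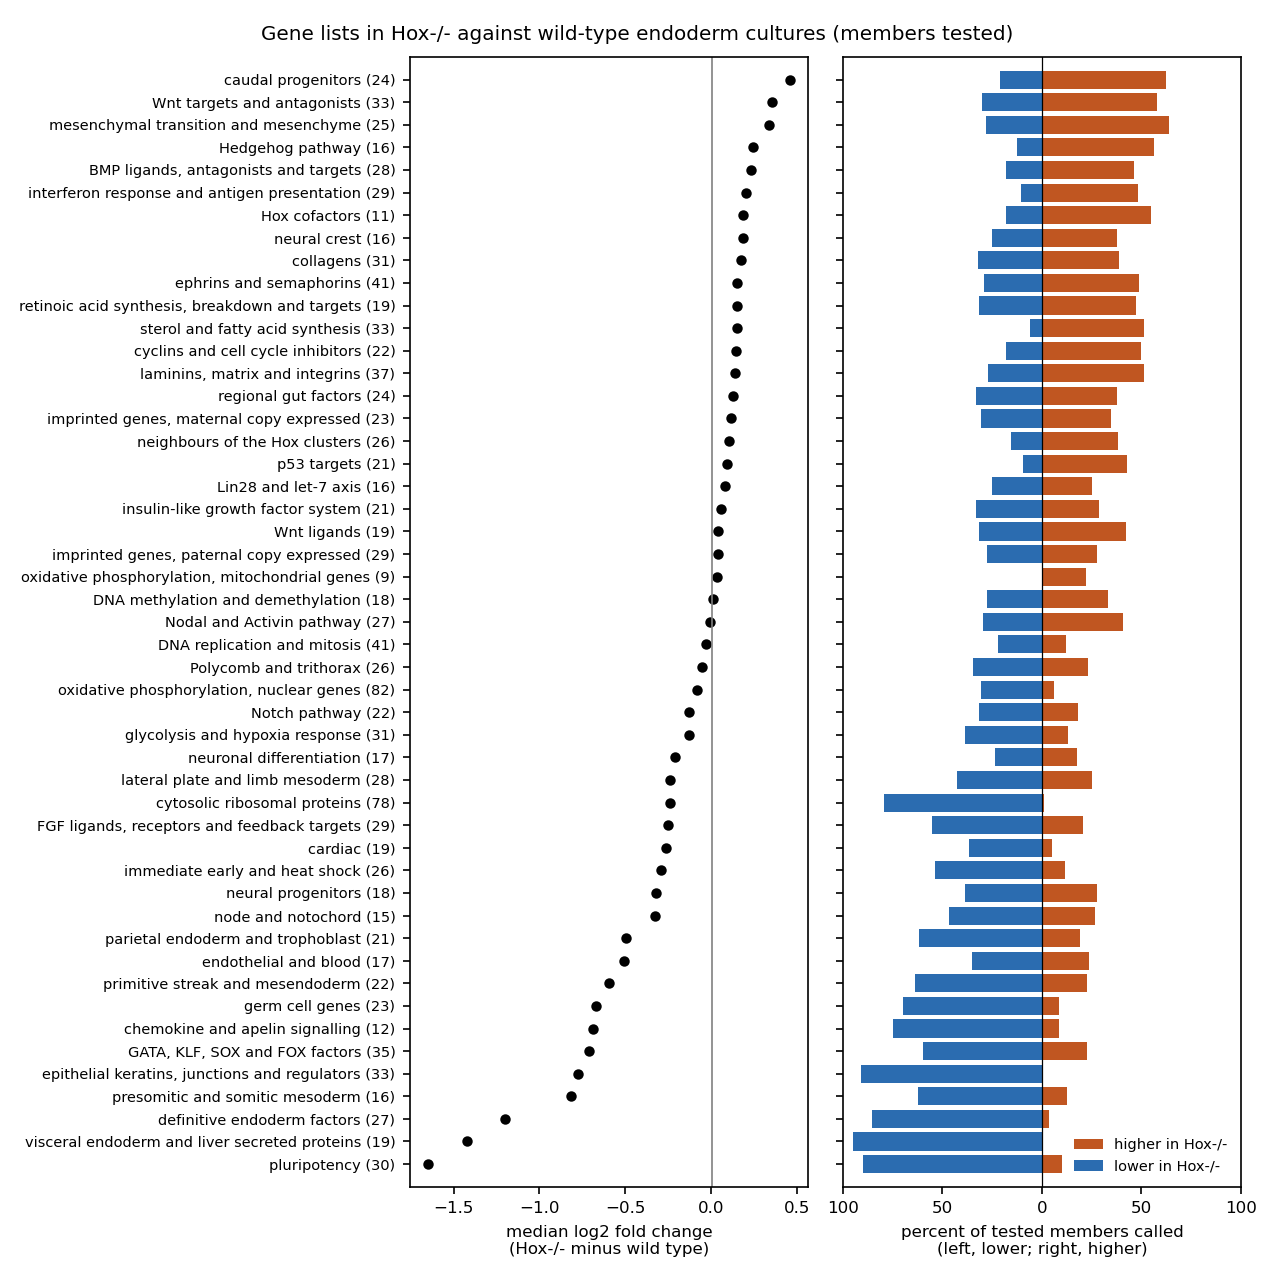
Median log2 fold change of each of 49 gene lists (left, grey line at the median of all tested genes) and the percent of its tested members called lower or higher in Hox-/- (right), with the number tested in parentheses. The pluripotency, visceral and definitive endoderm lists have the lowest medians, and the caudal progenitor and Wnt target lists the highest.

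Caudal progenitor genes were higher at 15 of 24 and lower at 5 (median 0.46). Evx1, a homeobox factor of the posterior streak, held 36.9, 39.7 and 52.8 CPM in wild-type cultures and 127, 118 and 127 CPM in Hox-/- (log2 fold change 1.53 ± 0.098). Its antisense neighbour Evx1os rose from 29.2 ± 2.83 to 127 ± 3.35 CPM, and counts of this overlapping pair cannot be told apart where strand use in counting is not given. Fgf17, a growth factor of the tail bud, held 14.6, 15.1 and 17.5 CPM and 59.0, 53.1 and 55.5 CPM (log2 fold change 1.83 ± 0.080). Fgf8, its close relative in the streak, fell instead, with 83.8, 84.4 and 117 CPM in wild-type cultures and 57.0, 43.9 and 51.3 CPM in Hox-/- (-0.90 ± 0.12). T, the brachyury gene, rose from 174 ± 9.07 to 236 ± 7.30 CPM (log2 fold change 0.45 ± 0.050), a call that limma on log2(FPKM + 1) did not make (adjusted p = 0.106). Cyp26a1, which clears retinoic acid from the tail bud, fell from 75.1 ± 1.87 to 40.8 ± 1.98 CPM, and the tail bud ligand gene Wnt8a from 20.7 ± 0.663 to 13.9 ± 0.528 CPM. Greb1 rose from 156 ± 12.00 to 374 ± 55.7 CPM. In the primitive streak list 14 of 22 fell and 5 rose (median -0.59), with Frzb, a secreted Wnt binder, at 11.6, 12.1 and 11.96 CPM in wild-type cultures and 0.852, 0.615 and 1.32 CPM in Hox-/-. Of 15 node and notochord genes 7 fell and 4 rose (median -0.33). The ciliary factor Foxj1 fell from 3.53 ± 0.616 to 1.54 ± 0.302 CPM, and Nog, a BMP antagonist of the notochord, rose from 13.7 ± 3.12 to 30.3 ± 4.95 CPM.

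Wnt ligand genes moved in both directions, and more Wnt targets and antagonists were higher than lower. Of 19 ligand and R-spondin genes 8 rose and 6 fell (median 0.041, of changing sign over the settings). Wnt7a held 0.487, 0.660 and 0.657 CPM in wild-type cultures and 9.54, 8.06 and 6.24 CPM in Hox-/- (log2 fold change 3.71 ± 0.25), and Wnt6 15.5, 12.7 and 16.7 CPM and 56.8, 36.6 and 45.7 CPM (1.65 ± 0.14). Wnt5b, which acts largely outside the β-catenin route, rose from 49.7 ± 2.82 to 115 ± 5.15 CPM, Wnt10a rose from 1.72 ± 0.925 to 8.43 ± 0.966 CPM, and Wnt2 fell from 2.13 ± 0.434 to 0.629 ± 0.152 CPM. The libraries of the genotypes did not overlap for any of these, as for most called genes. Of 33 targets and antagonists 19 rose and 10 fell (median 0.36). Among feedback inhibitors induced by β-catenin, Axin2, Nkd1, Notum and Apcdd1 rose, and Nkd2, the paralog of Nkd1, fell from 24.1 ± 1.59 to 19.5 ± 1.12 CPM. Axin2 held 140.5, 135 and 153 CPM in wild-type cultures and 269, 257 and 254 CPM in Hox-/- (log2 fold change 0.87 ± 0.055), and Apcdd1 55.2, 66.4 and 70.8 CPM and 203, 219 and 203 CPM (1.71 ± 0.074). Nkd1 rose from 83.1 ± 9.14 to 232 ± 13.6 CPM and Notum from 39.9 ± 3.93 to 92.1 ± 4.23 CPM. Lef1, a nuclear partner of β-catenin, rose from 87.4 ± 6.27 to 159 ± 9.002 CPM. The secreted Wnt binders Frzb and Sfrp5 fell, Sfrp5 from 22.7 ± 6.23 to 3.991 ± 0.287 CPM. Of the R-spondin receptors, Lgr5 fell from 7.56 ± 0.973 to 1.73 ± 0.178 CPM and Lgr6 rose from 0.537 ± 0.173 to 4.89 ± 0.559 CPM.

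The Nodal and Activin pathway, the one stimulated in the dish, had members that moved in both directions. Of 27 tested, 11 rose and 8 fell (median -0.0078, of changing sign over the settings). The co-receptor gene Cfc1 held 21.8, 22.0 and 24.1 CPM in wild-type cultures and 3.58, 3.44 and 3.15 CPM in Hox-/- (log2 fold change -2.73 ± 0.11). Nodal itself fell from 67.9 ± 5.12 to 44.6 ± 3.03 CPM, Gdf3, a partner ligand, from 10.02 ± 0.720 to 3.04 ± 0.458 CPM, and Foxh1, the nuclear partner of the SMAD proteins, from 60.7 ± 4.52 to 20.8 ± 1.35 CPM. The receptor gene Acvr1b rose from 82.2 ± 1.82 to 134 ± 2.83 CPM and the inhibitory Smad7 from 67.3 ± 8.26 to 89.4 ± 0.581 CPM. In the BMP list 13 of 28 rose and 5 fell (median 0.23). Bmp4 rose from 151 ± 9.001 to 222 ± 10.1 CPM and the protease gene Bmp1 from 62.0 ± 6.64 to 131 ± 1.80 CPM, while the pseudoreceptor gene Bambi fell from 42.0 ± 1.07 to 29.8 ± 0.787 CPM. FGF genes fell at 16 of 29 and rose at 6 (median -0.25). Fgf10, a mesenchymal ligand, held 80.0, 71.7 and 71.4 CPM in wild-type cultures and 21.2, 23.1 and 25.0 CPM in Hox-/- (-1.68 ± 0.073). The receptor gene Fgfr1 rose from 236 ± 13.7 to 359 ± 10.5 CPM, and Fgfr4 fell from 3.26 ± 0.481 to 0.982 ± 0.209 CPM. Of 19 retinoic acid genes 9 rose and 6 fell (median 0.15). Stra6, the retinol uptake receptor, rose from 15.7 ± 1.499 to 51.2 ± 2.95 CPM. Aldh1a2, the enzyme that makes retinoic acid in mesoderm, fell from 6.08 ± 1.45 to 2.84 ± 0.531 CPM. In the Hedgehog list 9 of 16 rose and 2 fell (median 0.24). The co-receptor gene Cdon rose from 41.3 ± 1.03 to 103 ± 5.41 CPM and the target gene Gli1 from 26.3 ± 2.01 to 38.6 ± 2.05 CPM. Cdon lies on chromosome 9 between 34 and 36 Mb, where all 13 tested genes were higher, against 23.2% of all tested genes. Cdon was higher in Hox-/- mES cells too (log2 fold change 0.96). The ligand gene Shh rose at a low level, from 0.540 ± 0.133 to 1.51 ± 0.279 CPM. Notch genes rose at 4 of 22 and fell at 7 (median -0.13). The ligand genes Dll1 and Dll3 fell from 16.6 ± 3.35 to 8.78 ± 0.612 CPM and from 46.2 ± 5.36 to 23.5 ± 1.92 CPM, and the receptors Notch1, Notch2 and Notch3 did not pass the test. Of 12 chemokine and apelin genes 9 fell and 1 rose (median -0.69). Cxcl12, the ligand of Cxcr4, was the member that rose (from 101 ± 9.31 to 209.7 ± 17.7 CPM), and Apela, a hormone of early endoderm, fell from 4.53 ± 0.413 to 1.52 ± 0.437 CPM. Among ephrin, semaphorin and other guidance genes 20 of 41 rose and 12 fell (median 0.15). Epha7 rose from 10.03 ± 0.421 to 26.9 ± 2.67 CPM, and Nrp1, a semaphorin receptor, fell from 58.4 ± 2.45 to 25.0 ± 0.457 CPM.

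Members of the mesoderm and neural lists moved in both directions. Presomitic and somitic genes fell at 10 of 16 and rose at 2 (median -0.82). Meox1, a somite homeobox gene, held 17.4, 18.3 and 18.7 CPM in wild-type cultures and 5.06, 4.80 and 4.599 CPM in Hox-/- (-1.90 ± 0.10), and Tbx6 fell from 15.7 ± 2.54 to 7.17 ± 0.377 CPM. Lateral plate and limb genes fell at 12 of 28 and rose at 7 (median -0.24). Tbx5 and Tbx4, factors of the fore- and hindlimb, moved apart, Tbx5 falling from 1.76 ± 0.251 to 0.569 ± 0.153 CPM and Tbx4 rising from 2.07 ± 0.430 to 6.02 ± 0.296 CPM. Pitx1, another hindlimb factor, rose from 7.01 ± 2.63 to 19.2 ± 2.63 CPM, as did Foxf2, a mesenchymal factor (from 5.97 ± 0.0881 to 16.2 ± 1.71 CPM). Cardiac genes fell at 7 of 19 and rose at 1, Actc1 (from 66.1 ± 9.46 to 112 ± 5.501 CPM), with a median of -0.26. Tnnt2, cardiac troponin T, fell from 5.22 ± 1.08 to 2.65 ± 0.114 CPM. The summed cardiac level was 108 to 129 in wild type and 123 to 127 in Hox-/-, in FPKM, so the sums of the genotypes overlapped. Of 17 endothelial and blood genes 6 fell and 4 rose (median -0.51). The receptor gene Flt1 fell from 82.00 ± 5.44 to 24.0 ± 0.644 CPM and Pecam1 from 9.38 ± 0.826 to 3.51 ± 0.522 CPM, whereas Runx1, a blood and bone factor, rose from 35.5 ± 5.77 to 77.6 ± 1.82 CPM. Hbb-bh1, Hbb-y and Ptprc, defining genes of blood cells, had 0 counts in every library. Neural progenitor genes fell at 7 of 18 and rose at 5 (median -0.32). The filament gene Nes rose from 174 ± 2.43 to 243 ± 17.7 CPM. Of 17 neuronal genes 4 fell and 3 rose (median -0.21). Beside Tubb3, those that rose were Crmp1 (from 5.32 ± 0.309 to 17.1 ± 0.872 CPM) and the growth cone gene Gap43 (from 9.92 ± 0.403 to 19.4 ± 3.20 CPM), while Mapt, which encodes tau, fell from 2.08 ± 0.243 to 0.805 ± 0.0724 CPM. Their summed level rose with Tubb3, 39.7 to 44.7 in wild type and 60.5 to 67.1 in Hox-/-, in FPKM. Neural crest genes rose at 6 of 16 and fell at 4 (median 0.18), with the receptor gene Ngfr at 16.8 ± 1.45 and 43.3 ± 2.62 CPM. Among GATA, KLF, SOX and FOX factors 21 of 35 fell and 8 rose (median -0.71). Klf2, a pluripotency factor, fell from 21.4 ± 2.33 to 5.91 ± 1.43 CPM, while Sox11 rose from 142 ± 4.57 to 227 ± 5.69 CPM and Foxb1 from 9.86 ± 2.41 to 34.7 ± 2.41 CPM.

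Imprinted genes, active from one parental chromosome, held calls of both directions in both parental classes. Of all tested genes 23.2% were higher and 22.9% lower. Of 23 maternally expressed genes 8 rose (34.8%) and 7 fell (30.4%), with a median of 0.12. Their summed level was 2234 to 2331 in wild type and 4346 to 4736 in Hox-/-, in FPKM, a sum that includes H19. Rian and Mirg, noncoding RNAs of the Dlk1 domain, rose from 844 ± 34.7 to 1538 ± 94.4 CPM and from 41.8 ± 2.70 to 78.7 ± 6.13 CPM. Meg3, in the same domain, rose from 792 ± 82.3 to 1366 ± 305 CPM, but limma on log2(FPKM + 1) did not call it (adjusted p = 0.089). Cdkn1c, a cell cycle inhibitor, and Phlda2, a neighbour in its domain that limits placental growth, fell from 20.4 ± 2.71 to 5.55 ± 0.440 CPM and from 5.76 ± 1.31 to 0.639 ± 0.136 CPM. Of 29 paternally expressed genes 8 rose and 8 fell (27.6% each), near the shares of all tested genes. Their median of 0.04 changed sign over the settings. Dlk1, a Notch-like ligand, held 28.0, 37.1 and 41.9 CPM in wild-type cultures and 16.6, 15.4 and 15.9 CPM in Hox-/- (-1.16 ± 0.12). Nnat rose from 39.7 ± 3.27 to 119 ± 6.94 CPM, and Sfmbt2 fell from 40.8 ± 2.72 to 16.9 ± 1.51 CPM. Igf2, the paternally expressed neighbour of H19, held 42.3, 50.3 and 81.8 CPM in wild-type cultures and 56.6, 47.7 and 40.2 CPM in Hox-/-. The genotypes overlapped and Igf2 did not pass the test (log2 fold change -0.27 ± 0.18, adjusted p = 0.252), and without replicate 3 of wild type its log2 fold change was 0.061. In the insulin-like growth factor system 6 of 21 rose and 7 fell (median 0.058, of changing sign over the settings). Irs4, an insulin receptor substrate, fell from 46.6 ± 3.75 to 9.89 ± 0.685 CPM, and Igf2r, the clearance receptor for Igf2, from 251 ± 2.52 to 129.8 ± 4.40 CPM. Igfbp7 and the protease gene Htra1 rose from 4.52 ± 0.731 to 10.6 ± 1.47 CPM and from 13.7 ± 1.23 to 42.6 ± 2.91 CPM.

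Most tested noncoding genes inside the Hox clusters were lower in Hox-/- cultures, while cofactors and neighbours of the Hox genes moved in both directions. Of 11 Hox cofactors 6 rose and 2 fell (median 0.19). Meis2 held 30.2, 32.9 and 34.3 CPM in wild-type cultures and 59.5, 70.6 and 63.5 CPM in Hox-/- (1.00 ± 0.075), Pknox2 rose from 25.2 ± 2.16 to 50.5 ± 0.992 CPM, and Meis1 fell from 22.1 ± 0.198 to 17.7 ± 1.41 CPM. Pknox2 lies on chromosome 9 between 36 and 38 Mb, where 10 of 14 tested genes were higher, against 23.2% of all tested genes. Pknox2 was higher in Hox-/- mES cells too (log2 fold change 0.53). Within the spans of the Hox clusters lie 43 other annotated genes, of which 18 were tested and 17 were lower, those 17 being at or under 3 counts in each Hox-/- library. The exception was Gm11539, at chr11:96248633-96249189 in the Hoxb cluster, singled out after its values were seen, which rose from 2.56 to 4.03 CPM (edgeR adjusted p = 0.0266). Hoxaas3, a noncoding RNA gene at chr6:52175217-52215076, held 29.1, 24.7 and 27.1 CPM in wild type and was at least 149-fold lower in Hox-/-, against a floor of 3 counts per library. Hoxb5os, at chr11:96291024-96306910 and overlapping Hoxb5, held 21.2, 21.0 and 21.7 CPM and was at least 117-fold lower. Of 26 tested genes in and around the clusters 10 rose and 4 fell (median 0.11), the latter being Gm53, which lies inside the Hoxb cluster, Calcoco2, Skap1 and Copz2. Calcoco2, at chr11:96099326-96111964 beside the Hoxb cluster, fell from 1.45 ± 0.0656 to 0.180 ± 0.0527 CPM. Skap2, at chr6:51857422-52012549 beside the Hoxa cluster, held 50.9, 53.9 and 52.2 CPM in wild-type cultures and 114, 114 and 117 CPM in Hox-/- (1.14 ± 0.051). Evx2, next to Hoxd, rose at a low level (from 0.342 ± 0.339 to 1.27 ± 0.183 CPM).

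Lists of general cell functions had medians between -0.29 and 0.20. Their counts stand beside 23.2% higher and 22.9% lower over all tested genes. Cytosolic ribosomal protein genes fell at 62 of 78 and rose at 1 (median -0.24), with Rpl9 at 1616, 1657 and 1463 CPM in wild-type cultures and 1111, 1086 and 1130 CPM in Hox-/-. The member that rose was Rps14, a call lost with limma on FPKM. Rps14 lies in the same stretch of chromosome 18 as Pdgfrb and was also higher in Hox-/- mES cells (log2 fold change 0.60). Levels of these genes are uncertain because many processed copies exist. Nuclear genes of oxidative phosphorylation fell at 25 of 82 and rose at 5 (median -0.082), among them Ndufa6 and Ndufb11, complex I subunits (from 79.0 ± 4.25 to 58.3 ± 3.32 CPM and from 92.1 ± 4.40 to 73.3 ± 3.06 CPM). Of the 9 tested mitochondrial ones 2 rose, mt-Co2 and mt-Co3, both under 5 CPM (median 0.032, of changing sign). Glycolysis and hypoxia genes fell at 12 of 31 and rose at 4 (median -0.13). The glucose transporter gene Slc2a3 fell from 1322 ± 54.4 to 663 ± 9.76 CPM, and Egln3, an oxygen sensor, rose from 15.5 ± 2.67 to 30.1 ± 2.12 CPM. Sterol and fatty acid synthesis genes rose at 17 of 33 and fell at 2 (median 0.15), with the desaturase gene Scd2 rising from 1338 ± 50.3 to 2261 ± 67.0 CPM. DNA replication and mitosis genes rose at 5 of 41 and fell at 9 (median -0.031), and the helicase genes Mcm2 and Mcm3 did not pass the test. Of 22 cyclin and inhibitor genes 11 rose and 4 fell (median 0.15). The inhibitor Cdkn2b held 8.76, 8.71 and 11.02 CPM in wild-type cultures and 38.0, 37.2 and 36.7 CPM in Hox-/- (1.98 ± 0.093), and Cdkn1a, or p21, rose from 304 ± 25.1 to 625 ± 40.5 CPM. Of 21 p53 targets 9 rose and 2 fell (median 0.095), with Mdm2 and Bax not passing the test. Immediate early and heat shock genes fell at 14 of 26 and rose at 3 (median -0.29), among them Fos (from 14.6 ± 1.72 to 7.75 ± 1.11 CPM) and the stress gene Trib3 (from 28.6 ± 1.67 to 11.6 ± 0.734 CPM). Interferon and antigen presentation genes rose at 14 of 29 and fell at 3 (median 0.20), with Ifitm3 and Gbp2 rising and the class I gene H2-K1 falling from 122 ± 5.99 to 90.1 ± 3.04 CPM. Polycomb and trithorax genes rose at 6 of 26 (23.1%) and fell at 9 (34.6%, median -0.055). The Cbx2 subunit gene rose from 93.2 ± 7.87 to 129.9 ± 3.87 CPM. In the Lin28 and let-7 list 4 of 16 rose and 4 fell (25% each, median 0.081), near the shares of all tested genes. Lin28a, an RNA-binding protein of early cells, fell from 240.3 ± 4.99 to 149 ± 3.17 CPM, and its paralog Lin28b rose from 45.1 ± 3.22 to 55.5 ± 3.35 CPM.

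The genotype difference in endoderm cultures was set against that in the mES cells from which they start. Both genotypes of mES cells grew in 10% serum with 100 ng/ml LIF, 1 µM of the MEK inhibitor PD0325901 and 3 µM CHIR99021, so the Wnt activator was present in mES cells and endoderm cultures alike (2 mES libraries per genotype). In a joint fit, the 2 effects differed at 3912 of 16206 genes (24.1%), 1888 more positive and 2024 more negative in endoderm cultures. The mES cells alone differed by genotype at 1928 genes (11.9%), with 5.12% of the tested genes higher and 6.78% lower in Hox-/-. Of 14906 genes tested in both fits, 1852 were called in mES cells, 6874 in endoderm cultures and 1060 in both. The shared calls made up 15.4% of the endoderm calls and 57.2% of the mES calls. Over all tested genes, 11.9% were called in mES cells and 46.1% in endoderm cultures. For 646 of the 1060 shared calls the direction was the same and for 414 it was opposite. Axin2 was lower in Hox-/- mES cells, with 66.8 ± 0.977 CPM in wild-type cells and 39.4 ± 2.21 CPM in Hox-/- (mean ± SD, n = 2), and higher in Hox-/- endoderm cultures. Hmga2, a chromatin protein gene, and Pik3r3, a kinase regulator, behaved likewise, with 63.8 ± 1.27 and 32.3 ± 2.22 CPM in wild-type mES cells and 31.2 ± 0.0972 and 21.4 ± 0.155 CPM in mutant ones. Emb, Igf2r and Alpk3 went the other way. Emb, an adhesion glycoprotein gene, had 13.9 ± 0.229 and 27.0 ± 0.334 CPM in wild-type and Hox-/- mES cells, and 249 ± 27.7 and 58.1 ± 1.83 CPM in the endoderm cultures.

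Gastruloids, aggregates of the same kinds of cells treated with Activin A and collected at 120 h, gave a second reference (2 libraries per genotype). Their genotypes differed at 7767 of 17577 genes (44.2%). The effects in endoderm cultures and gastruloids differed at 5665 genes (32.2%), of which 52.6% were more positive in endoderm cultures, or 66.8% when libraries were scaled by total counts alone. Of 14930 genes tested in both, 7180 were called in gastruloids, 6879 in endoderm cultures and 3926 in both. The shared calls made up 57.1% of the endoderm calls and 54.7% of the gastruloid calls. Over all tested genes, 44.2% were called in gastruloids and 46.1% in endoderm cultures. Of the 3926 shared calls, 3097 shared a direction (78.9%) and 829 did not. The epithelial list was lower in both, with a median of -0.78 in endoderm cultures and -3.26 in gastruloids, as was the definitive endoderm list, -1.20 and -2.69. Other lists had medians of opposite sign, over tested members that differed in part. Presomitic and somitic genes had a median of -0.82 over 16 genes in endoderm cultures and 1.07 over 27 in gastruloids. Of those 27, 18 were higher in Hox-/- gastruloids, against 22.2% of all tested genes. Primitive streak genes had -0.59 over 22 and 0.58 over 24, with 13 of the 24 higher. Igfbp5 was opposite, with 782 ± 20.3 CPM in wild-type gastruloids and 82.7 ± 1.33 CPM in mutant ones (n = 2). Gli1 and Ptch1, readouts of Hedgehog signalling, were also opposite, with Gli1 at 254 ± 0.797 and 16.03 ± 2.06 CPM in gastruloids. Dll1, Greb1l and Nkd2 were higher in Hox-/- gastruloids and lower in Hox-/- endoderm cultures. Dll1 had 103 ± 2.60 and 586 ± 0.690 CPM in wild-type and Hox-/- gastruloids. The call on Nkd2 in endoderm cultures was lost without replicate 1 of Hox-/- (adjusted p = 0.052).

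**Figure D5:**
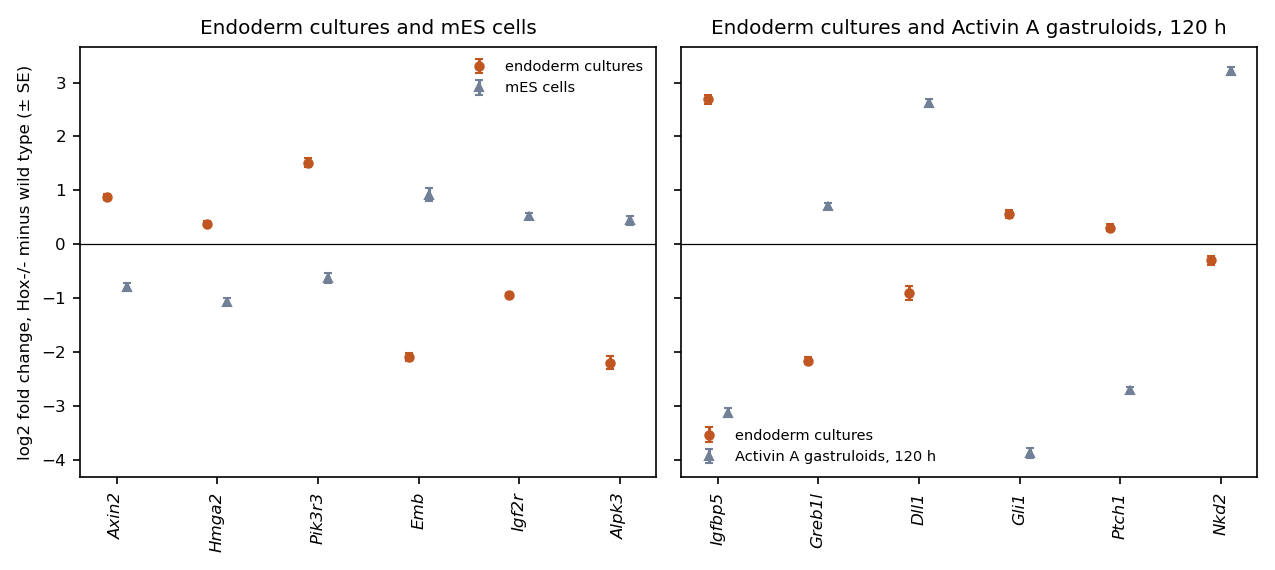
Log2 fold change (Hox-/- minus wild type, ± SE from the fits) of genes called with opposite signs in endoderm cultures and in mES cells (left) or in Activin A gastruloids at 120 h (right). In each panel 3 genes lie above 0 in endoderm cultures and below 0 in the other material, and 3 the reverse.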

How the data were processed

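Polyadenylated RNA of 3 wild-type and 3 Hox-/- endoderm cultures was sequenced after stranded library preparation, per the labels. The authors deposited whole-number counts per gene for each library, and FPKM values per gene. The submitters' processing notes name cutadapt 1.16, STAR, Cufflinks 2.2.1 and the build mm10. Which tool counted and whether strand was used is not given in the sources used here.

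Counts were tested with edgeR 4.0.16 in R 4.3.3 (filterByExpr, TMM scaling, quasi-likelihood test, 1 coefficient per group, Benjamini-Hochberg adjustment over all tested genes, threshold 0.05). Standard errors were taken as the log2 fold change divided by the square root of F. Joint fits with 4 mES or 8 Activin A gastruloid libraries gave the differences between genotype effects. Genes at or under a floor of 3 counts in every library of a group were given as bounds, which cover counting error only. Counts were simulated with changes only in 200 well-counted genes and with the same spread for every gene. Low-count genes were never changed, so the rates that follow do not cover them. On these simulated counts the endoderm fit recovered 97% of 2-fold changes, with 2.48% of calls false, over 14953 genes. The joint fit with mES cells recovered 94% over 15584 genes, with 6.73% of calls false, and that with gastruloids 81% over 16518, with 3.23% false. Alternatives were DESeq2 1.42.0, limma 3.58.1 on log2(FPKM + 1) and log2(FPKM + 0.1), other scalings and filters, a replicate block, and each library left out. Replicate pairs differed beyond counting noise, so none was treated as 1 library deposited more than once.

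Genes were named outside the Hox genes, chromosome Y and provisional symbols. The rule took the 10 per direction with the smallest p of at least 2-fold and without overlap between genotypes. It took the 6 per direction with the largest change at 20 CPM or more, also called and without overlap. It took the 4 per direction with the highest FPKM of at least 2-fold. From each list it took the first 3 genes and up to 4 called genes per direction, and it took 3 per direction with opposite calls in another material. Cell type markers, and Mixl1 and Igf2, which did not pass the test, were added. Some genes that this rule takes are not reported here. The 49 lists hold 1318 symbols, of which 3 were not found. The genes and lists were chosen with earlier results of these data known. Promoters are RefSeq sequences of GRCm38.p6, and gene classes and positions are those of the GENCODE annotation of the same assembly.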

Additional observations from a re-analysis of the deposited data

Results flagged for a closer look

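The endoderm cultures and mES cells differed in the genotype effect of these genes, with the opposite sign and a call in each, and the values are the effect in endoderm cultures minus that in mES cells on the log2 scale (edgeR joint fit, adjusted p for each difference in parentheses). The difference was 1.66 for Axin2 (1.16e-10), 1.44 for Hmga2 (4.07e-11) and 2.13 for Pik3r3 (2.97e-10). It was -3.02 for Emb (6.98e-12), -1.47 for Igf2r (2.60e-11) and -2.65 for Alpk3 (9.14e-11).

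Against Activin A gastruloids at 120 h, the difference on the same scale was 5.83 for Igfbp5 (2.69e-22), 4.45 for Gli1 (4.54e-19) and 3.04 for Ptch1 (3.47e-18). It was -2.86 for Greb1l (8.04e-19), -3.50 for Dll1 (7.98e-16) and -3.49 for Nkd2 (9.04e-18). These genes were chosen for a call of opposite sign in both materials, so the signs are a description.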

How the results depend on the processing

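Over all alternatives, 4794 to 7476 genes were called (6879 in the report), 5691 of them by DESeq2, and 46.9 to 50.9% of calls were higher. Leaving out each library in turn gave 5640 to 6681 calls, with 5912 without Hox-/- replicate 1. Genes called at 2-fold or more numbered 859 with at least 10 counts in every library, 519 with limma on log2(FPKM + 1), 879 on log2(FPKM + 0.1) and 2127 with no filter, against 1501. Higher calls numbered 2265 and 2246 with limma on the same FPKM scales. Genes more positive in endoderm cultures than in mES cells ranged from 1108 to 1947 when each library was left out, the lowest without replicate 1 of the wild-type mES cells. Scaling by total counts alone put 66.8% of the differences from gastruloids on the positive side, and the cause was not tested. The Hox total was 3.46% of wild type as a sum of FPKM. The log2 fold change of Igf2 ranged from -0.45 to 0.061 when each library was left out, the sign changing without wild-type replicate 3. Of the values of single named genes, 6246 kept direction and side of the threshold, 175 lost their call, 5 gained one and 1 reversed. Same-numbered libraries deviated from their group means with correlations of -0.127, 0.129 and -0.025. With 3 libraries per group these values cannot show whether a number marks a shared batch, which the labels do not say. A fit with the replicate block called 6819 genes. Genes under 1 CPM were called at 36.0%, those over 100 CPM at 52.9%. Calls of 2-fold or more made up 33.4% and 1.65% of the genes tested in these ranges, so at low levels most calls were large changes, and the part of depth was not tested.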

Other observations

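Genotype differences were also read along the chromosomes, over 2-Mb windows with at least 8 tested protein-coding genes (608 windows). The median log2 fold change of a chromosome ran from -0.038 (chromosome 6) to 0.062 (chromosome 18). The 1st and 99th percentiles of the window medians were -0.336 and 0.317. The windows below were picked for their extreme medians, and not all extreme windows are described. Beside their counts stand 23.2% higher and 22.9% lower over all tested genes. On chromosome 9, all 13 tested genes between 34 and 36 Mb were higher in Hox-/- endoderm cultures, with a median of 0.70, and the same window had medians of 0.59 in mES cells, 0.51 in Activin A gastruloids at 96 h and 0.74 at 120 h. In the next window, 36 to 38 Mb, 10 of 14 were higher (median 0.56), with medians of 0.58 in mES cells and 0.54 and 0.74 in gastruloids at 96 h and 120 h. On chromosome 1, 9 of 11 genes between 178 and 180 Mb were higher (median 0.51), with medians of 0.55 in mES cells and 0.32 and 0.72 in gastruloids. On chromosome 18, 14 of 22 genes between 60 and 62 Mb were higher (median 0.41), among them Cdx1, Pdgfrb and Rps14, with medians of 0.54 in mES cells and 0.66 and 0.59 in gastruloids. On chromosome 7, 8 of 9 tested genes between 10 and 12 Mb were lower (median -1.96). The median there was -2.01 in mES cells, with 3 of 9 called lower, and -1.05 and 0 in gastruloids at 96 h and 120 h. This window holds the near-identical Zscan4 family, so its levels are uncertain. On chromosome 4, 13 of 20 genes between 146 and 148 Mb were lower (median -1.16). The medians were 0.08 in mES cells and -0.27 and -0.76 in gastruloids at 96 h and 120 h. Many of the lower genes there are Zfp zinc finger genes at low levels, such as Zfp988 (7.52 and 1.93 CPM). Whether their reads are split between related copies was not tested.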
